A study of Homo sapiens with 15 samples.

Results

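Reelin and its receptors were followed as 4 genes, RELN, VLDLR, LRP8 and DAB1, across all 15 RNA-seq libraries and 5 culture groups of the series. They were found by symbol in the deposited gene table, where all 4 were present among 15790 genes. RELN was chosen by its measured values, a difference between the monocultures on the 2 kinds of membrane, and the other 3 members were added as its receptors and adaptor. For that reason the values of RELN in every comparison that uses a monoculture are a description with no test, and its comparison between the co-cultures is the one tested.

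Reelin is a large secreted glycoprotein, best known for guiding the layering of neurons in the developing cortex. It binds 2 members of the low-density lipoprotein (LDL) receptor family, VLDLR and LRP8 (also called ApoER2). The bound receptors pass the signal on through DAB1, a cytoplasmic adaptor that docks on NPxY motifs of the receptor tails and is phosphorylated by SRC-family kinases. In the kidney, other receptors of the same family take up filtered proteins in the proximal tubule.

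The cells were 2 immortalized human lines, and each group therefore rests on 1 line or on a mix of both. RPTEC/TERT1 is a line of renal proximal tubular epithelial cells, and fHDF/TERT166 is a line of foreskin dermal fibroblasts. The groups, with 3 libraries each, were fibroblast monocultures, epithelial-fibroblast co-cultures on LN/FN-silk (silk co-cultures), epithelial monocultures on LN/FN-silk (silk monocultures), epithelial-fibroblast co-cultures on LN/PC (LN/PC co-cultures) and epithelial monocultures on LN/PC (LN/PC monocultures). Epithelial cells were seeded at 140000 per cm2 and fibroblasts at 14000 per cm2, the cultures were used at day 14, and 3 to 8 membranes were pooled. Silk membranes were scraped off, LN/PC membranes were cut out of their holder, and the fibroblasts were scraped from the bottom of the well, so that membrane and way of harvest cannot be told apart. The titles call the fibroblast group monocultures, while the harvest text calls the same cells basolateral, and the titles were followed here for every value that uses them. Nothing in the labels says that replicates came from separate cultures, and the p-values measure the spread between these libraries, which may be technical.

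Values are normalized counts, obtained by inverting the deposited log2 values. Library totals lay between 9.08 and 12.7, in units of 1000000 normalized counts, and 1 read was worth 0.755 to 1.33 normalized counts. Levels are not divided by gene length, so they are compared between libraries and not between genes. The epithelial markers went with the labels. All 8 were in the table, 4 of them (CDH1, CDH16, KRT18 and PAX2) were at 0 in the fibroblast monocultures, and their sum lay between 32.7 and 38.4 there and between 21107 and 35764 in the other groups. Of 9 proximal tubule markers, 5 were in the table and the other 4 were not analysed here. They summed to between 17572 and 20500 in fibroblast monocultures and between 4881 and 11440 in the other groups. AQP1, ANPEP and CUBN of those 5 had their highest means in the fibroblast monocultures, at 6709, 11042 and 151 normalized counts, so that this list does not separate the lines. The 12 fibroblast markers summed to between 497192 and 567203 in fibroblast monocultures, 141 and 786 in silk co-cultures, 119 and 161 for silk alone, 94988 and 171712 in LN/PC co-cultures, and 61 and 110 for LN/PC alone. From 112 marker genes, the estimated share of fibroblast RNA was 0.0457% ± 0.0597 in silk co-cultures, against 13.0% ± 2.80 for LN/PC (SD, n = 3 each), as the median over markers. The same markers summed gave 0.118% ± 0.0567 and 20.9% ± 5.81, so that the share depends on the estimate. In bulk RNA, fewer cells of a type and less RNA per cell cannot be told apart.

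The stretch before the RELN start site is shown because RELN is the member that differed between the membranes. It is the RefSeq sequence of GRCh38.p14, chr7:103989659-103989908, minus strand, the 250 bases upstream of the annotated start, with every match to GGGCGG (the core of a GC box) and CACGTG (an E-box) in capitals.

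RELN upstream: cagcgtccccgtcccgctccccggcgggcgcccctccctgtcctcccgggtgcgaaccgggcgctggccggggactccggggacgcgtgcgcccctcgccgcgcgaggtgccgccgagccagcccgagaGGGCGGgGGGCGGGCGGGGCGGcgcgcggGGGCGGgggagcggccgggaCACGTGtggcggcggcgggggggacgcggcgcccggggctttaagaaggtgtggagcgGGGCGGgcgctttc

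GGGCGG was searched on both strands, with overlaps allowed, and matched 6 times, and CACGTG matched 1 time. Of 35116 upstream stretches of the same length, 42.6% held GGGCGG and 6.34% held CACGTG. The RELN stretch had no match to TATAAA, held by 10.7% of stretches, and none to CCAAT, held by 32%. Its GC content was 83.2%, against a median of 58% over all stretches, and 1.05% of stretches were at least as rich. It held 43 CpG dinucleotides, against a median of 11. The stretch of VLDLR had 78.8% GC, 41 CpG dinucleotides and 2 GGGCGG matches, and that of LRP8 had 77.2% GC, 31 CpG dinucleotides and 3 matches. DAB1 had 6 annotated starts, with 58.4% to 82.8% GC. These are matches of letters and not measured sites.

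RELN, the ligand, was low on silk with and without fibroblasts and high on LN/PC. In silk co-cultures its 3 libraries held 10.2, 39.3 and 19.5 normalized counts, against 189, 367 and 155 in LN/PC co-cultures. Every silk co-culture was below every LN/PC co-culture, as for 26.2% of all genes in that direction. The mean was 23.0 ± 14.8 in silk co-cultures, against 237 ± 114 for LN/PC (SD, n = 3 each), 10.3-fold lower on silk. The log2 difference was -3.40 ± 0.41 (SE), with a 95% interval of -4.27 to -2.53, and limma gave an adjusted p of 1.27e-05 over 14433 genes. That fit took its spread from all 12 libraries with epithelial cells, so the monocultures that chose RELN enter the SE. With the co-cultures alone in the fit, the adjusted p was 4.5e-05 by limma. In the fit of 12 libraries, 36.1% of all genes passed the threshold of 0.05 between the co-cultures in either direction. Lower values on silk were called for 17.6%.

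Fibroblast RNA, which also moved with the membrane, was added in silico to the silk co-cultures at the mean share of the LN/PC co-cultures, a calculation chosen after seeing the data. At the share of 13.0% the log2 difference of RELN was -3.57 with an adjusted p of 3.62e-05 by limma, and at the share of 20.9% it was -3.68 with an adjusted p of 4.24e-05. Fibroblast monocultures held less RELN than any silk co-culture, so that this step could only widen the difference and is not a test of it. For the other genes, fibroblast RNA was added at 13.0% unless 20.9% is named. Leaving out each library in turn gave log2 differences of -3.87 to -2.95. The share of counts on mitochondrially encoded genes moved with the membrane too, at 5.97% ± 0.501 in silk co-cultures, against 2.37% ± 0.584 for LN/PC (SD, n = 3 each), and its part in the result was not tested. Markers of 4 other cell types were read as well, and the part of each list was not tested. The leukocyte list had 1 of 5 genes in the table, CD68, at 757 to 885 normalized counts in silk co-cultures, against 351 to 501 for LN/PC, and at 523 to 581 in fibroblasts. The list of smooth muscle and pericytes had 3 of 5, which summed to 259 to 339 in silk co-cultures, against 1220 to 1775 for LN/PC, and to 2199 to 2677 in fibroblasts. Neither of these lists overlapped between the co-cultures. The endothelial list had 1 of 7 genes in the table, PECAM1, at 2.97 to 11.9 normalized counts in silk co-cultures, against 2.24 to 43.4 for LN/PC. The neuronal list had 2 of 5, SNAP25 and TUBB3, which summed to 568 to 644 in silk co-cultures, against 656 to 828 for LN/PC, also with no overlap.

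**Figure D1:**
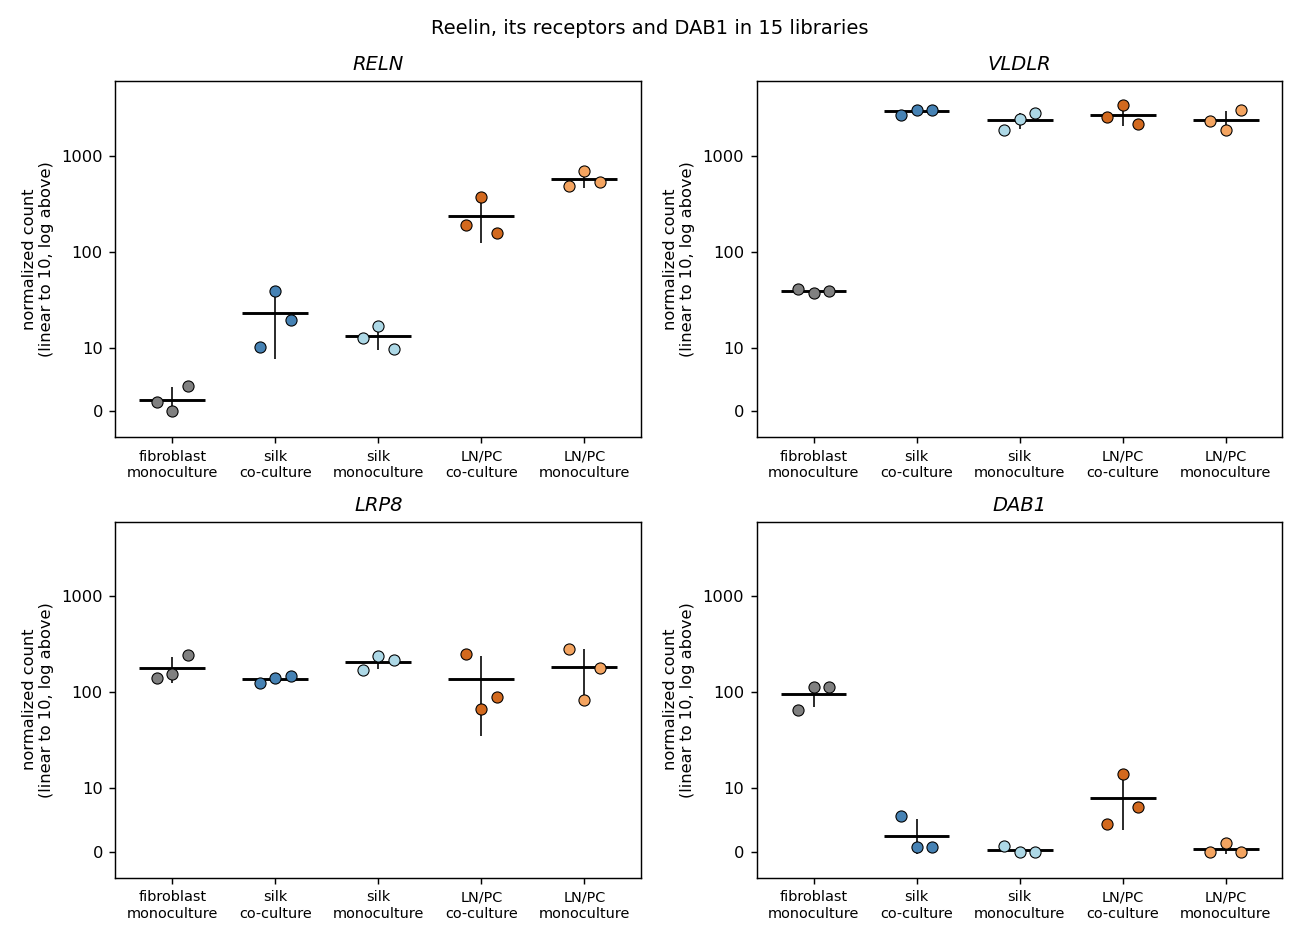
Normalized counts of RELN, VLDLR, LRP8 and DAB1 in each of 15 libraries (vertical axis linear to 10 and logarithmic above), with a point per library, a bar at the mean and a line of 1 SD for the 5 groups. RELN lies between 9.82 and 39.3 in all silk libraries and between 155 and 696 in all LN/PC libraries, while VLDLR lies between 37.0 and 41.0 in fibroblasts and at 1838 or more in every other library.

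In the monocultures, which served to pick RELN, the same order was seen as a description. Silk monocultures held 12.6, 16.6 and 9.82 normalized counts of RELN, against 485, 696 and 534 in LN/PC monocultures. Their means were 13.0 ± 3.43 on silk and 572 ± 110 on LN/PC (SD, n = 3 each), 43.9-fold lower on silk, with a log2 difference of -5.36 ± 0.41 (SE). The libraries did not overlap, as for 12.3% of all genes with lower values on silk, and 11.7% of all genes passed the threshold between these groups. PECAM1 lay between 1.18 and 9.74 normalized counts in silk monocultures, against 16.1 to 97.7 on LN/PC. The mitochondrial share was 5.16% ± 1.25 in silk monocultures, against 2.48% ± 1.19 on LN/PC (SD, n = 3 each), with no overlap. The list of smooth muscle and pericytes summed to 225 to 307 in silk monocultures, against 336 to 406 on LN/PC, and the part of these 3 measures was not tested.

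Fibroblast monocultures held 1.55, 0 and 4.03 normalized counts of RELN, about 6 reads in all. Their mean was 1.86 ± 2.03 (SD, n = 3), 7.01-fold lower than in silk monocultures and 307-fold lower than in LN/PC monocultures. By reads, the ratio to both epithelial monocultures together was 150-fold lower, with an exact 95% interval of 68.7 to 408 that covers counting error only.

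Co-culture went with different values of RELN on the 2 membranes. On silk, the 3 co-cultures overlapped the monocultures, with a log2 difference of 0.61 ± 0.41 (SE). On LN/PC, every co-culture was below every monoculture, with means of 237 ± 114 in co-cultures and 572 ± 110 in monocultures (SD, n = 3 each), a log2 difference of -1.35 ± 0.41 (SE). Non-overlap with lower values in co-culture was seen for 12.1% of all genes on LN/PC, where 12.5% passed the threshold. The difference between the 2 co-culture effects, silk minus LN/PC, was 1.96 ± 0.58 on the log2 scale (SE). All of these are descriptions, since the monocultures chose the gene.

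The LN/PC co-cultures were also set against a mixture of the 2 cell lines' RNA. A mixture of the mean LN/PC monoculture and the mean fibroblast library, at the fibroblast share of each LN/PC co-culture, gave 493, 516 and 485 normalized counts of RELN. The observed values were 38.5%, 71.1% and 31.8% of these, and 36.4% to 74.9% with the shares from summed markers. With fibroblast RNA added to the LN/PC monocultures, the log2 difference was -1.15 (-1.02 at 20.9%), against -1.35 without it. The order of the 5 groups by mean RELN was LN/PC monoculture, LN/PC co-culture, silk co-culture, silk monoculture and fibroblast monoculture, and of neighbours in this order the libraries of silk co-cultures and silk monocultures overlapped.

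**Figure D2:**
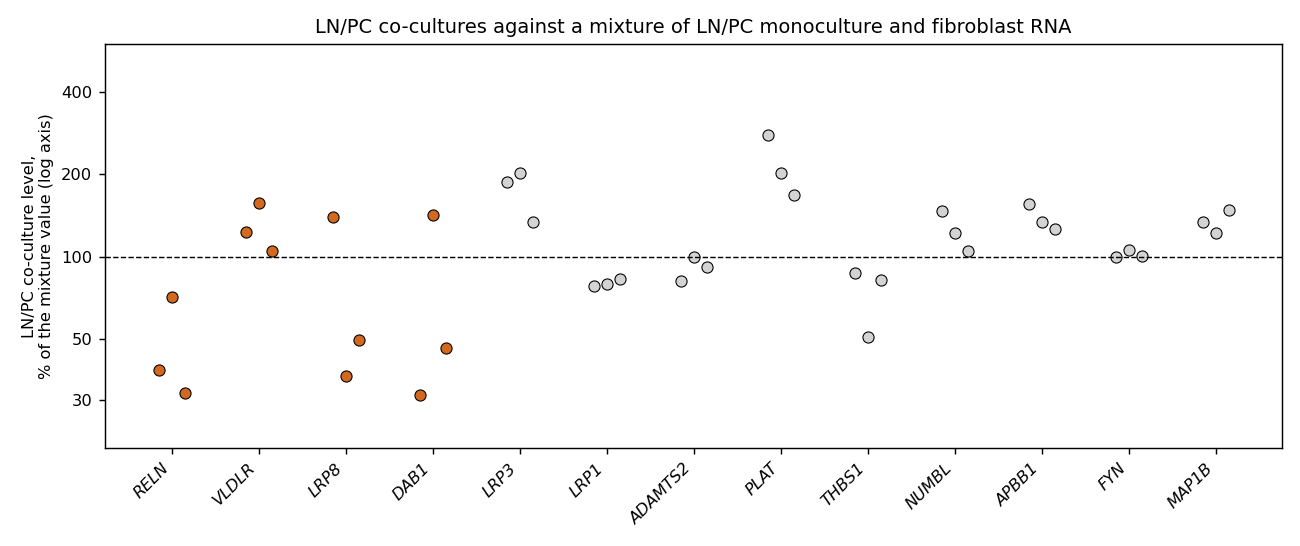
Level in the 3 LN/PC co-cultures as a percent of the level in a mixture of LN/PC monoculture and fibroblast RNA (logarithmic vertical axis, dashed line at 100%), with a point per library for the 4 members (orange) and the 9 named pathway genes called between LN/PC co-cultures and LN/PC monocultures (grey). RELN lies at 31.8% to 71.1%, FYN at 99.8% to 106%, and PLAT at 169% to 279%, all at the share given by the median over markers. FYN and ADAMTS2 are among the markers that set this share, so that their closeness to 100% is partly built in.

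VLDLR, the receptor that also binds very-low-density lipoprotein, was an epithelial transcript in these cultures and passed no test among the 4 groups that hold epithelial cells. Fibroblast monocultures held 41.0, 37.0 and 38.7 normalized counts, against 1871, 2384 and 2775 for epithelial cells alone on silk and 2326, 1838 and 2979 for those on LN/PC. The log2 difference between fibroblasts and the epithelial monocultures was -5.87 ± 0.17 (SE), 58.3-fold lower, with an adjusted p of 1.06e-10 by limma over 14502 genes. In that comparison 58.3% of all genes passed the threshold, and 30.3% passed it with lower values in fibroblasts.

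Silk co-cultures held 2666, 2994 and 3024 normalized counts of VLDLR, and LN/PC co-cultures held 2527, 3393 and 2123. The libraries of these groups overlapped, with a log2 difference of 0.14 and a 95% interval of -0.29 to 0.57 (adjusted p = 0.629 by limma). Between silk and LN/PC monocultures the difference was -0.01, with an interval of -0.44 to 0.42 (adjusted p = 0.981 by limma). Between silk co-cultures and silk monocultures it was 0.32, with an interval of -0.11 to 0.75, and 3.78% of all genes passed the threshold. Between LN/PC co-cultures and LN/PC monocultures it was 0.17, with an interval of -0.26 to 0.60. The interaction was 0.15, with an interval of -0.46 to 0.76, and 7.73% of all genes passed there. The lowest unadjusted p of VLDLR among these 5 tests was 0.134 by limma. Over all 12 libraries with epithelial cells, VLDLR ranged over 1.85-fold, from 1838 to 3393, and RELN ranged over 70.9-fold.

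The antisense gene VLDLR-AS1 overlaps VLDLR on the opposite strand in GENCODE release 29. The library kit keeps the strand, but whether the counting used it is not given in the sources used here. VLDLR-AS1 reached at most 35.7 normalized counts in any library.

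LRP8, the other reelin receptor, was detected in both lines and passed no test. Fibroblast monocultures held 142, 153 and 243 normalized counts, silk monocultures 171, 238 and 216, and LN/PC monocultures held 284, 82.7 and 179. The log2 difference between fibroblasts and the epithelial monocultures was -0.07, with a 95% interval of -0.81 to 0.67 (adjusted p = 0.875 by limma). Silk co-cultures held 124, 142 and 147 normalized counts, and LN/PC co-cultures held 253, 66.8 and 89.8. The spread was wide on LN/PC, where libraries ranged from 66.8 to 284, and narrow on silk, where they ranged from 124 to 238.

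The lowest unadjusted p of LRP8 over its 6 tests was 0.193 by limma. Between silk and LN/PC co-cultures the log2 difference was 0.25, with an interval of -0.65 to 1.16 (adjusted p = 0.670 by limma), and between the monocultures it was 0.35, with an interval of -0.56 to 1.26 (adjusted p = 0.627 by limma). Without LN/PC co-culture 2 the difference between co-cultures was -0.13, and without LN/PC monoculture 2 that between monocultures was -0.13. Between silk co-cultures and silk monocultures it was -0.58, with an interval of -1.49 to 0.33 (adjusted p = 0.551 by limma). Every silk co-culture was below every silk monoculture there, which held for 12.4% of all genes with lower values in co-culture. Between LN/PC co-cultures and LN/PC monocultures it was -0.49, with an interval of -1.39 to 0.42, and the interaction was -0.10, with an interval of -1.38 to 1.19. All neighbours in the order of the 5 group means overlapped.

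**Figure D3:**
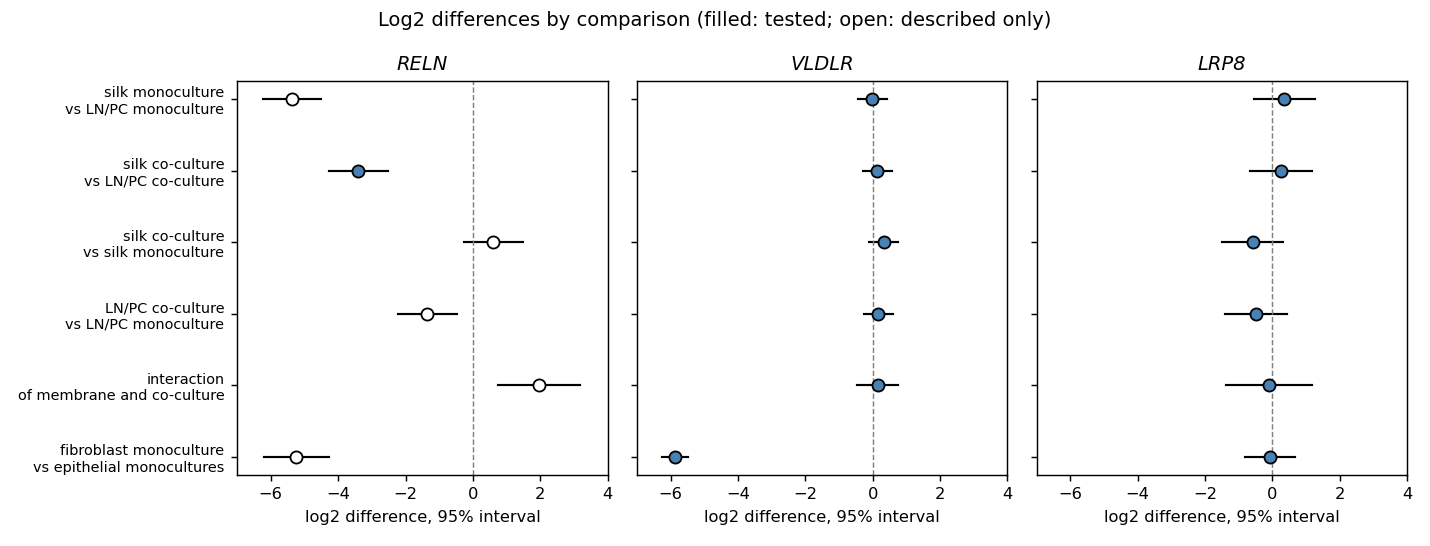
Log2 differences (points) with 95% intervals (lines) from the limma fits for RELN, VLDLR and LRP8 in 5 comparisons and the interaction of membrane and co-culture, with filled points for tests and open points for descriptions. RELN between silk and LN/PC co-cultures and VLDLR between fibroblasts and epithelial monocultures are the filled points whose intervals lie away from 0.

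DAB1, the intracellular adaptor, was a fibroblast transcript here and was close to absent from the epithelial monocultures. Fibroblast monocultures held 65.8, 112 and 112 normalized counts, about 296 reads in all. Silk monocultures held 0.901, 0 and 0, about 1 read, and LN/PC monocultures held 0, 1.36 and 0, about 2 reads. By reads, the level was 214-fold higher in fibroblasts, with an exact 95% interval of 72.5 to 1043 that covers counting error only. DAB1 passed the filter on low values of that fit through the fibroblasts alone, so it had to differ, and the ratio is a description. It did not pass the filter in the comparisons among groups that hold epithelial cells, so that 3 of the 4 members were tested there.

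Both kinds of co-culture held a few reads of DAB1. Silk co-cultures held 5.67, 0.866 and 0.854 normalized counts, about 8 reads, and LN/PC co-cultures held 4.33, 14.1 and 7.02, about 23 reads. The level in silk co-cultures was 3.20-fold lower than in LN/PC co-cultures by reads, with an interval of 1.38 to 8.28 that covers counting error only. The libraries of these 2 groups overlapped, and silk co-culture 1 alone held more than LN/PC co-culture 1. It was 13.6-fold higher in LN/PC co-cultures than in LN/PC monocultures, with an interval of 3.37 to 119 for counting error. The mixture of LN/PC monoculture and fibroblast RNA held 13.9, 9.91 and 15.1 normalized counts. The observed values were 31.3%, 142% and 46.6% of it, and 19.7% to 97.8% with the shares from summed markers. A mixture of silk monoculture and fibroblast RNA held 0.323, 0.300 and 0.410 normalized counts, less than 1 read each. The silk co-cultures lay above these values, with about 6 of their 8 reads in silk co-culture 1. In GENCODE release 29, OMA1 overlaps DAB1 on the same strand, and it held between 65.8 and 176 normalized counts over the 15 libraries.

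The ligand and the adaptor were highest in different groups. RELN was highest in LN/PC monocultures, where DAB1 had about 2 reads, and DAB1 was highest in fibroblast monocultures, where RELN had about 6 reads. Across the 15 libraries, Pearson's r between RELN and VLDLR was 0.69, and across the 12 that hold epithelial cells it was -0.06, given as a description of libraries that fall into 5 groups.

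Genes whose pattern was most like that of RELN were named by Pearson's r on log2(normalized count + 1), among genes that reached a group mean of 50 or more. Over all 15 libraries they were RNF145 (r = 0.969), KLHL2 (0.968), C4A (0.967), NFE2 (0.962) and SERPINA3 (0.961), of 12744 genes. Over the 12 libraries with epithelial cells they were C4A (0.991), SNCAIP (0.980), A2M (0.977), IL33 (0.9754) and SERPINA1 (0.9747). C4A encodes complement component C4 and shares nearly all of its sequence with C4B, so its counts are uncertain. SERPINA1 and SERPINA3 encode the protease inhibitors alpha-1 antitrypsin and alpha-1 antichymotrypsin, and A2M encodes alpha-2 macroglobulin. IL33 held 2.52, 4.0 and 0.912 normalized counts in silk co-cultures, against 18.6, 45.3 and 15.1 in LN/PC co-cultures. A2M held 2.02, 9.97 and 23.0 in silk co-cultures, against 144, 270 and 90.4 in LN/PC co-cultures. All of these genes were picked for their likeness to RELN in these same libraries. Their difference between the membranes therefore follows from the choice and is a description.

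**Figure D4:**
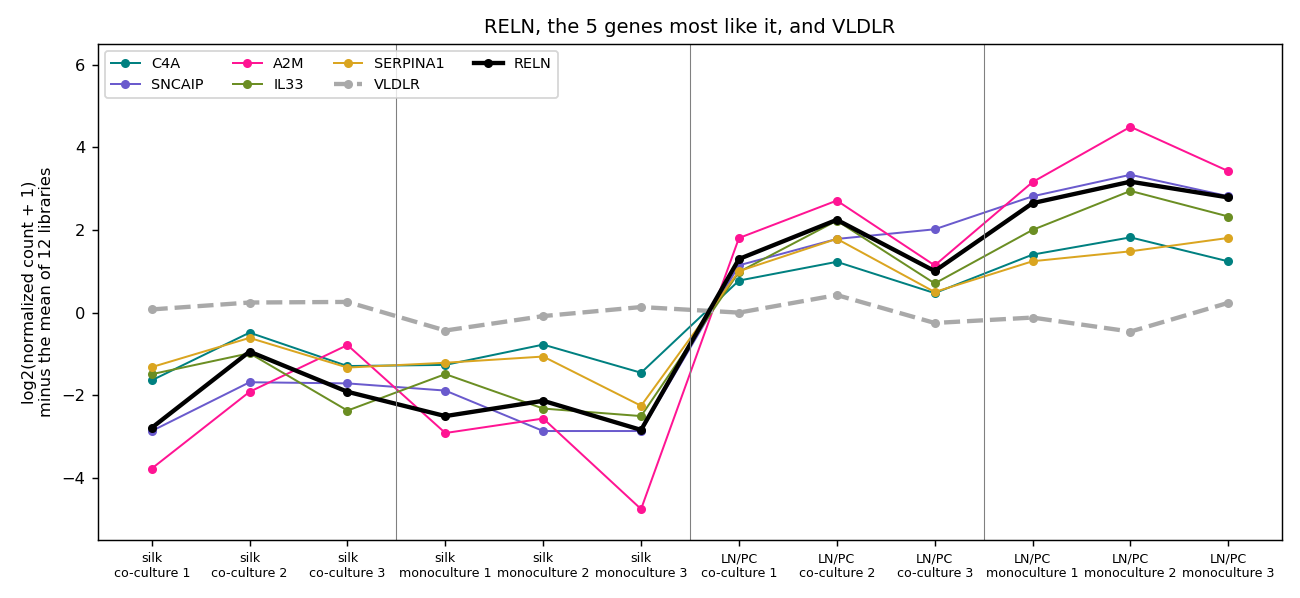
Log2(normalized count + 1) minus the mean over the 12 libraries that hold epithelial cells, by library, for RELN (black), the 5 genes with the highest Pearson's r with it (thin lines) and VLDLR (dashed). RELN and the 5 genes lie below their mean in all 6 silk libraries and above it in all 6 LN/PC libraries, and VLDLR stays near its mean. The 5 genes were picked by r with RELN over these same libraries, so that their split by membrane follows from the choice.

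For the other members the most alike genes over 15 libraries were different ones. For VLDLR they were SNX10, TTC39A, DSG2, SPP1 and SCN3A, with r between 0.996 and 0.998, and all 5 had a mean of 0 in fibroblast monocultures. For LRP8 they were CENPO (0.830), PRR11, ZSCAN25, TNPO2 and BRCA1 (0.777). For DAB1 they were CLMP (0.972), RP9P, a gene with no symbol in the table, SYNE3 and RPL4 (0.959).

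The wider reelin pathway was read from 6 lists with 72 genes, of which 65 were in the table and the other 7 (LRP1B, LRP2, ADAMTS4, MEP1A, MEP1B, LPL and MAPT) were not analysed here. Between silk and LN/PC co-cultures, 8 of 65 were higher and 21 lower on silk, 44.6% against 36.1% of all genes, with a median log2 difference of -0.22 for the lists and 0.03 for all genes. Between the monocultures, 4 were higher and 10 lower on silk, 21.5% against 11.7% of all genes, with medians of -0.19 and 0.03. Between silk co-cultures and silk monocultures, limma called 1 higher and 0 lower, 1.54% against 3.78% of all genes, and 8 were higher and 2 lower at an unadjusted p under 0.05. Between LN/PC co-cultures and LN/PC monocultures, limma called 9 higher and 0 lower, 13.8% against 12.5% of all genes, and 11 were higher and 5 lower at an unadjusted p under 0.05. In fibroblasts against epithelial monocultures, 33 were higher and 10 lower, 66.2% against 58.3% of all genes. These comparisons share libraries, and the fibroblast share of 13.0% in LN/PC co-cultures stands beside each of those that use them. LRP3, ADAMTS2 and FYN reached 10 normalized counts only in the LN/PC co-cultures among the 12 libraries with epithelial cells. They passed the filter through that group alone and had to differ, so their values in both comparisons that use it are descriptions. These genes are among the 9 called higher in LN/PC co-cultures and the 21 called lower in silk co-cultures. They raise the shares of 13.8% and 44.6%, so that no excess over all genes is read from those shares. In the fit of fibroblasts against epithelial monocultures, the same genes passed the filter through the fibroblasts alone. GULP1 and ADAMTS3 passed it there through the epithelial monocultures alone. Their values in that comparison are descriptions too. Its counts include them, so that no excess over all genes is read from its 66.2% either.

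Of the other ligands of VLDLR or LRP8, 6 of 7 were in the table, and 1 was called higher and 3 lower on silk between the monocultures, where 11.7% of all genes were called. SELENOP, the selenium carrier taken up through LRP8, held 29.9, 60.8 and 70.5 normalized counts in silk monocultures, against 409, 559 and 535 in LN/PC monocultures. The log2 difference was -3.27 ± 0.31 (SE), with an adjusted p of 1.72e-05 by limma. In silk co-cultures it held 22.0, 32.9 and 37.4, against 500.5, 357 and 309 in LN/PC co-cultures, a log2 difference of -3.62 ± 0.31. Fibroblasts held 1772, 1803 and 1492, and with fibroblast RNA added to the silk co-cultures the difference was -0.63 and did not pass (adjusted p = 0.0942 by limma; -0.02 at 20.9%).

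THBS1, thrombospondin 1, was higher on silk in monocultures by 1.39 ± 0.32 and higher in LN/PC co-cultures than in LN/PC monocultures by 1.82 ± 0.32. With fibroblast RNA added to the LN/PC monocultures, the co-culture difference of THBS1 was -0.50 (adjusted p = 0.248 by limma), and at 20.9% it was -1.07 (adjusted p = 0.0201 by limma). CLU, clusterin, differed by -0.86 ± 0.27 between the monocultures, and TFPI, an inhibitor of coagulation, differed by -0.77 ± 0.16. TFPI held 1010, 1172 and 1206 normalized counts in silk co-cultures, against 1483, 2225 and 1579 in LN/PC co-cultures, a log2 difference of -0.62 ± 0.16 (adjusted p = 0.00806 by limma).

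Of the proteases that cleave reelin, 6 of 9 were in the table. PLAT, tissue plasminogen activator, held 175, 126 and 106 normalized counts in silk co-cultures, against 605, 390 and 378 in LN/PC co-cultures, a log2 difference of -1.74 ± 0.36 (SE; adjusted p = 0.00164 by limma). Its difference between LN/PC co-cultures and LN/PC monocultures was 1.85 ± 0.36, and 1.12 with fibroblast RNA added (adjusted p = 0.0315 by limma). At 20.9% PLAT did not pass in either comparison, with -0.81 between the co-cultures (adjusted p = 0.0999 by limma) and 0.82 on LN/PC (0.0839). ADAMTS3 held 99.3, 100 and 78.7 in silk co-cultures, against 51.3, 49.0 and 37.7 in LN/PC co-cultures, a log2 difference of 1.00 ± 0.31, and fibroblasts held at most 8.15. Its difference was 0.81 with fibroblast RNA added and did not pass (adjusted p = 0.0573 by limma). ADAMTS2 held 281, 244 and 347 in LN/PC co-cultures and was at 0 in all LN/PC monocultures, at least 102-fold higher against a floor of 3 reads per library. These values were 81.4% to 100% of the mixture (50.6% to 68.0% with the shares from summed markers), and with fibroblast RNA added the difference was -0.16. In fibroblasts ADAMTS2 held 2276, 2569 and 2607 normalized counts. Between the monocultures, ADAMTS5 (1.26 ± 0.32) and ADAMTS3 (0.99 ± 0.31) were called higher on silk and FURIN (-0.68 ± 0.17) lower.

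Of the other LDL receptor family members, 10 of 12 were in the table, and limma called 0 of them between the monocultures (3 at an unadjusted p under 0.05) and 0 between silk co-cultures and silk monocultures (1 at that level). SORL1, a sorting receptor, held 260, 268 and 344 normalized counts in silk co-cultures, against 108, 109 and 66.2 in LN/PC co-cultures, a log2 difference of 1.63 ± 0.25 (SE; adjusted p = 0.000155 by limma). LRP1 was lower in silk co-cultures than in LN/PC co-cultures, by -0.85 ± 0.24, and higher in LN/PC co-cultures than in LN/PC monocultures, by 1.58 ± 0.24. LRP3, given as a description, had about 3 reads in the silk co-cultures, and by reads it was 122-fold lower there than in LN/PC co-cultures (exact 95% interval of 41.4 to 595, counting error only). Both were fibroblast-rich, with LRP1 between 19682 and 22574 and LRP3 between 502 and 566 normalized counts in fibroblasts. With fibroblast RNA added, the difference of LRP1 between the co-cultures was 0.53 and did not pass, and at 20.9% it was 0.99 (adjusted p = 0.0065 by limma), so that the direction turned. On LN/PC it was -0.33, and -0.86 at 20.9% (adjusted p = 0.0368 by limma). Fibroblasts were called higher for 5 of the 10 (among them LRP1, and LRP3 as a description) and lower for SORL1 (-1.24 ± 0.29) and LRP6 (-0.78 ± 0.17), beside 58.3% of all genes called there.

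All 7 genes on the list of receptor folding, sorting and turnover were tested, and few were called. MYLIP, the ubiquitin ligase that marks VLDLR and LRP8 for degradation, was lower on silk between the monocultures by -0.96 ± 0.26 (SE). SNX17, a sorting nexin of receptor recycling, was lower on silk between the monocultures by -0.48 ± 0.15 and between the co-cultures by -0.56 ± 0.15 (-0.36 with fibroblast RNA added at 20.9%, adjusted p = 0.0791 by limma). LRPAP1, the chaperone of the receptor family, was higher on silk between the co-cultures by 0.44 ± 0.16, and by 0.38 with fibroblast RNA added, which did not pass (adjusted p = 0.0846 by limma). SNX17 was higher in fibroblasts by 0.46 ± 0.14, and by 0.088 with library totals rescaled, which did not pass (adjusted p = 0.57 by limma).

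Of 7 other adaptors that bind NPxY motifs, DAB2, an endocytic adaptor, differed by -0.65 ± 0.16 between silk and LN/PC monocultures and by -0.90 ± 0.16 between the co-cultures (SE). With fibroblast RNA added, the co-culture difference of DAB2 was -0.42 and did not pass (adjusted p = 0.0666 by limma). NUMB was lower on silk between the monocultures by -0.56 ± 0.16. APBB1 was lower on silk between the co-cultures by -1.0 ± 0.20, with APBB1, DAB2, NUMB and NUMBL the 4 called of 7, beside 36.1% of all genes. NUMBL and APBB1 were higher in LN/PC co-cultures than in LN/PC monocultures by 1.11 ± 0.23 and 0.67 ± 0.20, and neither passed with fibroblast RNA added. GULP1, given as a description, was lower in fibroblasts by -5.86 ± 0.33, and NUMBL and DAB2 were higher there by 2.80 ± 0.19 and 1.81 ± 0.14.

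Downstream of DAB1, 29 of 30 genes were in the table. Of these, 5 were called higher and 10 lower in silk co-cultures than in LN/PC co-cultures, where 36.1% of all genes were called. The 10 lower include FYN, which had to differ, and MAP1B, which did not pass with fibroblast RNA added. ITGA3, an integrin subunit that binds laminins, held 20377, 21982 and 23448 normalized counts in silk co-cultures, against 7969, 9264 and 7503 in LN/PC co-cultures, a log2 difference of 1.41 ± 0.20 (SE; adjusted p = 7.11e-05 by limma). It also differed between silk co-cultures and silk monocultures by 1.02 ± 0.20 (adjusted p = 0.0077 by limma). SOCS7, which takes part in the degradation of DAB1 in mouse, was higher in silk co-cultures by 1.14 ± 0.27. MAP1B, a microtubule-associated protein, was lower in silk co-cultures by -2.28 ± 0.23 and higher in LN/PC co-cultures than in LN/PC monocultures by 4.0 ± 0.23. MAP1B passed in neither comparison with fibroblast RNA added. FYN, the SRC-family kinase that phosphorylates DAB1, is a description here, at 5.23, 1.83 and 5.19 normalized counts in silk co-cultures, against 191, 143 and 209 in LN/PC co-cultures. It held 1155, 1549 and 1400 normalized counts in fibroblasts, and its LN/PC co-culture values were 99.8% to 106% of the mixture, and 59.1% to 71.8% with the shares from summed markers. Between the monocultures MAP1B was higher on silk by 1.57 ± 0.23, and PIK3R1, a regulatory subunit of PI3-kinase, was lower by -1.21 ± 0.23.

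Several of these calls ended when a single library was left out, and for most of them any of several libraries did so. Between the monocultures, 9 of 13 named calls ended when 1 of the 6 libraries was left out, those of ADAMTS3, ADAMTS5, CLU, DAB2, FURIN, MYLIP, NUMB, PAFAH1B1 (-0.81 ± 0.25) and SNX17, each of the 6 libraries ended at least 1, and the highest adjusted p by limma was 0.204, for PAFAH1B1. Between the co-cultures, those of ADAMTS3 (up to 0.0647, without silk co-culture 1 or 2 or LN/PC co-culture 3), LRP1 (0.068, without silk co-culture 1), TFPI (0.0546, without LN/PC co-culture 2) and LRPAP1 (up to 0.205, without any library but LN/PC co-culture 2) ended, as adjusted p by limma. That of ITGA3 between silk co-cultures and silk monocultures ended without silk co-culture 3 (0.0607), and that of APBB1 between LN/PC co-cultures and LN/PC monocultures ended without any 1 of the 6 libraries (up to 0.162). With library totals rescaled, the calls of CLU, DAB2, MYLIP, NUMB and SNX17 between the monocultures (adjusted p of 0.0544 to 0.114 by limma) and of APBB1 on LN/PC (0.103) ended as well. That of SNX17 in fibroblasts ended without fibroblast monoculture 2 or 3 (up to 0.0733).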

How the data were processed

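Polyadenylated RNA of 15 libraries was sequenced with a strand-keeping kit, per the labels' protocols. The submitters' processing notes name Salmon 1.10.3 and DESeq2. No genome build or annotation is named in those notes or in the table. The authors deposited 1 table of log2 values with a floor of 5.53664461 for a count of 0, the form of a variance-stabilizing transformation. It was inverted to normalized counts, after which every library had the same median ratio to the geometric mean over 13121 genes, 1.01175 (range 6.27e-09). Depth was about 8.80 to 14.8 per library, in units of 1000000 reads, estimated from the step of low values. Of these, 29.4% to 53.1% lay no further than 0.1 from whole reads, which is too few for a count test, and read numbers are approximate. The exact intervals by reads use these numbers, pooled over the libraries of a group and rounded, so they are approximate too and are not tests.

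limma 3.58.1 (R 4.3.3) with a mean-variance trend was fitted on log2(normalized count + 1) for genes with at least 10 in at least 3 libraries: 14433 genes in 1 fit of 12 libraries, and 14502 in 1 fit of 9 for fibroblasts. The fold changes on that scale understate those of low genes. Benjamini-Hochberg adjustment was over all tested genes, with calls under 0.05. The script was tested on simulated data. With 3 libraries against 3, an exact permutation test cannot go below 0.1. The fibroblast share is the median over 112 markers (a fibroblast mean of 1000 or more, and 100 times or more that of each epithelial monoculture) of the excess over the monoculture, as a percent of that in fibroblasts. Pathway genes were named as the called genes with the 2 largest changes in each direction per list, with a group mean of at least 50 (NUMB and NUMBL between the co-cultures and TFPI between the monocultures are named outside this rule). A few genes are not reported here and are left out of the lists' counts. Members and lists were chosen with earlier results of these data known. Alternatives were the deposited scale, pseudocount 5, no filter, 2 rescalings, fits of only the groups compared, a replicate block, each library left out, and, chosen after seeing the data, fibroblast RNA added in silico at either of 2 shares. Sequences are from RefSeq (GRCh38.p14).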

Additional observations from a re-analysis of the deposited data

Results flagged for a closer look

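The interaction of membrane and co-culture (co-culture minus monoculture on silk, minus the same on LN/PC, log2) was tested by limma. Of 65 list genes, 2 were called higher and 6 lower, 12.3% against 7.73% of all genes. The 6 lower include ADAMTS2, FYN and LRP3. Of the other called genes, 4 had been named for calls in pairwise comparisons of the same libraries. Their values were -3.85 for MAP1B (adjusted p = 1.58e-06 by limma), -1.98 for THBS1 (0.0103), -1.83 for PLAT (0.036) and 1.4 for ITGA3 (0.00507). RAPGEF1, which the naming rule did not reach, was called at 0.88 (adjusted p = 0.0303 by limma). The interaction was -7.13 for ADAMTS2, -5.31 for FYN and -4.53 for LRP3, which are descriptions, since these 3 genes held at most 5.23 normalized counts in every library with epithelial cells other than the LN/PC co-cultures and their values depend on the pseudocount. Of all these genes, ADAMTS2, FYN, LRP3, MAP1B, THBS1, PLAT and RAPGEF1 were higher in fibroblast monocultures than in epithelial monocultures, and ITGA3 was lower. Fibroblast RNA made up 0.0457% of the silk co-cultures and 13.0% of the LN/PC co-cultures by the median over markers, and 0.118% and 20.9% by summed markers. The interaction was not fitted with fibroblast RNA added, so the part of the fibroblast share in it was not tested. With fibroblast RNA added to the LN/PC monocultures, the co-culture difference of THBS1 on LN/PC reversed. That of MAP1B did not pass, and that of PLAT did not pass at 20.9%. Among the LN/PC co-cultures, PLAT stood at 169% to 279% of a mixture of LN/PC monoculture and fibroblast RNA by the first estimate and at 133% to 228% by the second. MAP1B stood at 122% to 148% by the first and 85.5% to 89.6% by the second. THBS1 stood at 50.7% to 87.1% and at 37.6% to 58.7%.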

How the results depend on the processing

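Alternative values of the members, of counts of called genes and of the fibroblast share numbered 414. Of these, 360 kept their direction and side of the threshold or their size. Of 830 for named pathway genes, 713 did. Counts of called genes were judged by a fold limit, and untested values by the SD between libraries. The totals include values that could hardly change, such as those of genes that had to differ, so they do not measure stability. RELN between the co-cultures passed in every alternative run, with adjusted p of 3.09e-06 to 0.000122 by limma and -2.95 to -3.87 with a library left out. The runs with fibroblast RNA added to the silk co-cultures could only widen this difference. On the deposited scale RELN was -3.07 between the monocultures, 1.29 for the interaction and -2.06 in fibroblasts, and with pseudocount 5 it was -4.9994 and -3.92 between the monocultures and in fibroblasts; these scales shrink low values. DAB1 was -0.30 between the co-cultures, 0.23 for co-culture on silk and 0.51 on LN/PC on the deposited scale, and 1.25 on LN/PC with pseudocount 5. With no filter, DAB1 entered the LN/PC comparison through the co-cultures, at about 23 reads against 2, so that no p-value is read from it. VLDLR between the monocultures reversed to 0.10 with library totals rescaled and 0.045 with upper quartiles, and between the co-cultures to -0.062 with fibroblast RNA added at 13.0% and -0.20 at 20.9%; none of these passed.

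With fibroblast RNA added, the differences of ADAMTS2 (0.17), FYN (0.018) and LRP1 (0.53) between the co-cultures, and of ADAMTS2 (-0.16), LRP1 (-0.33) and THBS1 (-0.50) between LN/PC co-cultures and monocultures, reversed. At 20.9% those of ADAMTS2 (0.85), FYN (0.69), LRP1 (0.99) and MAP1B (0.37) between the co-cultures, and of ADAMTS2 (-0.85), FYN (-0.68), LRP1 (-0.86), MAP1B (-0.24), NUMBL (-0.027) and THBS1 (-1.07) on LN/PC, reversed. ADAMTS2 and FYN are among the markers that set the share. With the compared groups alone in the fit, 754 genes were called between the monocultures (1685 with all 12 libraries), 1174 between silk co-cultures and monocultures (545) and 1088 between LN/PC co-cultures and monocultures (1807; 622 with fibroblast RNA added, 706 at 20.9%). The fibroblast share from summed markers was 0.118% on silk and 20.9% on LN/PC.

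With 1 library left out, called genes numbered 695 to 3208 between the monocultures (3208 without LN/PC monoculture 2, 695 without LN/PC monoculture 3), 3415 to 4745 between the co-cultures, 207 to 559 for co-culture on silk, 753 to 2007 for co-culture on LN/PC and 465 to 1359 for the interaction. VLDLR ranged over -0.19 to 0.16 between the monocultures, -0.019 to 0.32 between the co-cultures, -0.012 to 0.35 for co-culture on LN/PC and -0.027 to 0.33 for the interaction. LRP8 ranged over -0.13 to 0.76 between the monocultures, -0.13 to 0.82 between the co-cultures, -0.50 to 0.47 for the interaction and -0.31 to 0.14 in fibroblasts. The cause of these movements was not tested.

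Deviations of same-numbered libraries had correlations of -0.25 to 0.19 over 18 pairs, and the numbers were not used as a pairing. With so few libraries per group, these correlations cannot show whether same-numbered libraries shared a batch. With a replicate block, RELN between the co-cultures kept -3.40 with an adjusted p of 3.09e-06 by limma. NUMB, PAFAH1B1 and SNX17 between the monocultures and APBB1 on LN/PC did not pass with that block. Depth limits DAB1 in the epithelial groups, which rests on 1 to 23 reads per group.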
